A study of Homo sapiens with 6 samples.

Results

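The genes examined here are the 3 D-type cyclins (CCND1, CCND2 and CCND3), their partner kinases CDK4 and CDK6, the CDK inhibitors CDKN1B, CDKN2A, CDKN2B and CDKN2C, and RB1. They were taken by gene symbol, with earlier results of these data known, and all 10 were found among the 26255 genes listed. RNA was compared in H1299 cells between 3 libraries of cells with control shRNA (shControl) and 3 of cells with shRNA against Ephexin1 (shEphexin1), both expressed from a U6 promoter in a pSilencer2.1 plasmid. H1299 is a line of lung cancer cells grown in RPMI-1640 with serum, and both groups had passed through transfection and drug selection. The labels name a neomycin plasmid and the methods of the study a hygromycin plasmid. The study describes stable clones, and the 3 shEphexin1 library names share a stem, so it is not known whether these libraries come from separate clones. The p values then measure only the spread between these libraries, which may be technical.

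D-type cyclins bind CDK4 or CDK6 and carry signals from growth factors to the cell cycle, since the RAS and ERK pathway raises cyclin D transcription. The active kinases phosphorylate RB1, which otherwise holds E2F transcription factors in check, and free E2F then turns on cyclin E and the genes of DNA synthesis. INK4 proteins, encoded by CDKN2A, CDKN2B and CDKN2C, bind CDK4 and CDK6 and keep the cyclin out, whereas p27, encoded by CDKN1B, binds whole cyclin and CDK complexes and chiefly blocks cyclin E with CDK2.

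Values of single libraries follow the order of replicates 1, 2 and 3. They are FPKM (fragment numbers corrected for the length of the transcript and the size of the library), so levels can be compared between genes, but the depth of each library is unknown. NGEF, which encodes Ephexin1, measured 13.3, 11.7 and 16.4 FPKM with the control shRNA and 9.81, 8.25 and 10.5 FPKM with the Ephexin1 shRNA, or 68.9% of the control mean, with no overlap of the groups and a limma adjusted p of 0.103. Between 16958 and 17509 genes were above 0 FPKM per library. Of 5 epithelial markers, KRT8 (2.65 to 8.44 FPKM) and KRT18 (36.3 to 109 FPKM) were present in all libraries, CDH1 was listed at 0 throughout, and KRT19 and EPCAM did not exceed 0.220 FPKM. Their summed level was 72.8 to 118 FPKM in the shControl libraries and 39.2 to 58.4 FPKM in the shEphexin1 libraries, with KRT8 and KRT18 lower (limma adjusted p of 0.0304 and 0.0439), and the part of this shift in the results was not tested. The mesenchymal markers VIM, CDH2 and ZEB1 were each at 11.03 FPKM or more, and the lung markers NKX2-1, SFTPB, SFTPC and NAPSA lay between 0 and 0.324 FPKM. Of 8 markers of blood, vessel and stromal cells, PTPRC and CD3E were at 0 and only CD68 (37.8 to 71.1 FPKM) exceeded 1 FPKM, with a summed level of 38.3 to 54.2 FPKM in the shControl libraries and 54.4 to 71.9 FPKM in the shEphexin1 libraries. Replicate 2 of both groups stood apart: across genes, its deviations from the group mean correlated negatively with GC content (Spearman's rho of -0.688 and -0.759), while those of the other 4 libraries correlated positively (0.335 to 0.665). Results are therefore also given for replicates 1 and 3 alone.

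Among the genes of the G1 machinery, CCND2 was nearly absent from the shEphexin1 libraries, CDK4 and CDKN1B fell to 61.7% and 62.7% of the control mean, and the major D cyclin CCND1 did not pass the test. Each gene was compared with limma on log2(FPKM + 0.1) across the 16020 genes that reached 0.1 FPKM in 3 or more libraries, all 10 among them, with Benjamini-Hochberg adjustment. CCND2 alone was called, by which a fold of 2 or more with an adjusted p no higher than 0.025 is meant (1 of 10, where 0.999% of all genes tested were called lower). With an adjusted p no higher than 0.05, whatever the fold, 3 of 10 fell (CCND2, CDK4 and CDKN1B, against 4.32% of all genes) and 0 rose (against 2.69%, limma, with 0 also at an unadjusted p under 0.05). The groups did not overlap for the same 3 genes, all lower in shEphexin1 (15.4% of all genes), and for 0 genes in the other direction (12.8%). With replicates 1 and 3 alone, 4 of 10 fell at an adjusted p of at most 0.05, CDKN2A being the fourth (10.4% of all genes). The median log2 fold change of the 10 genes was -0.22, beside -0.0093 over all genes tested. In these bulk libraries, fewer cells that express a gene and less RNA per cell cannot be told apart.

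**Figure D1:**
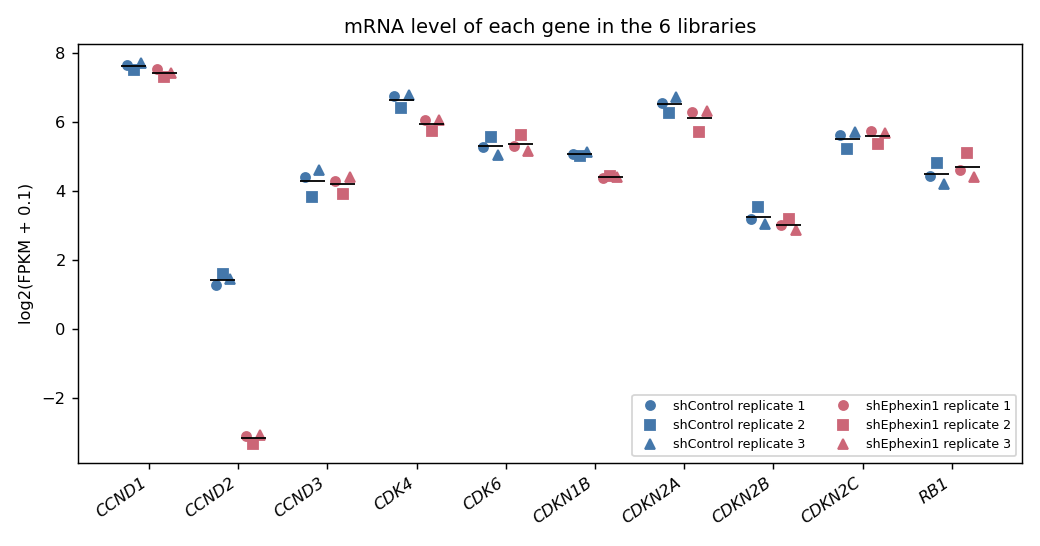
The points show log2(FPKM + 0.1) of each gene (x axis) in the 3 shControl (blue) and 3 shEphexin1 (red) libraries, with the replicate number as the symbol and the group mean as a line. CCND2 drops from 2.31 to 2.89 FPKM to at most 0.0183 FPKM, and CDK4 and CDKN1B are the other genes whose groups do not overlap.

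CCND1, which encodes cyclin D1 (GRCh37, 11q, chromosome 11 from 69455924 to 69469242), was by far the most abundant D cyclin mRNA. It measured 201, 181 and 208 FPKM with the control shRNA and 184, 157 and 171 FPKM with the Ephexin1 shRNA. Only the lowest shControl library, replicate 2, fell within the range of the shEphexin1 libraries. Its log2 fold change was -0.20 (standard error, SE, 0.106, 95% interval -0.45 to 0.045, limma adjusted p = 0.306), so a decrease of up to 0.45 on the log2 scale lies within the interval. With replicates 1 and 3 alone it was -0.20 (adjusted p = 0.110), and within the replicate numbers the log2 ratio was -0.13, -0.20 and -0.28. It passed with a term for replicate 2 (adjusted p = 0.0247) and with a loess correction for GC content and transcript length (0.0254), settings in which 29.2% and 29.1% of all genes passed. The log2 fold change shrank to -0.022 with quantile normalization (limma adjusted p = 0.913) and to -0.14 with arm medians subtracted (0.525).

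CCND2, which encodes cyclin D2 (12p, chromosome 12 from 4378937 to 4414519), was at 2.31, 2.89 and 2.61 FPKM in shControl. In shEphexin1 it was listed at 0.0153, 0 and 0.0183 FPKM. Every shEphexin1 library was thus far below every shControl library, and the order did not depend on replicate 2. The fitted log2 fold change was -4.60 (SE 0.230, adjusted p = 0.000180 from limma), the 10th lowest of all 16020 genes. Its size depends on the pseudocount, from -1.83 with 1 FPKM to -7.08 with 0.01 FPKM, and the adjusted p was at most 0.00291 under every alternative. CCND2 is among the RT-qPCR genes of the study. The paper reports that RT-qPCR bore out the genes with a marked difference in these cells, without giving values for CCND2 in its text. Those genes were chosen for their difference in these same data, so the decrease seen here is not independent of that choice.

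The genes around CCND2 did not share this drop. TIGAR, a regulator of glycolysis that starts 2410 bp beyond the end of CCND2, measured 3.18, 3.61 and 3.33 FPKM with the control shRNA and 2.37, 2.68 and 1.82 FPKM with the Ephexin1 shRNA (log2 fold change -0.55, SE 0.181, limma adjusted p = 0.120). PARP11, the nearest gene tested on the other side at 396323 bp, rose from 0.766 ± 0.137 to 1.70 ± 0.305 FPKM (SD, 3 libraries a group), or by 1.06 on the log2 scale (limma adjusted p = 0.0353). The call of PARP11 rested on all libraries, with adjusted p values of 0.0626 to 0.136 when any of the 6 was left out. None of the genes within 500 kb was called at the 2-fold threshold. The antisense gene CCND2-AS1, which overlaps CCND2 on the opposite strand, was listed at 0 FPKM in 5 libraries and at 0.238 FPKM in shControl replicate 3. Over 12p as a whole, the median log2 fold change was -0.43 (169 genes with a mean of at least 1 FPKM), and with this arm median subtracted CCND2 remained at -4.17.

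CCND3, which encodes cyclin D3 (6p, chromosome 6 from 41902672 to 42018095), measured 21.2, 13.9 and 24.0 FPKM with the control shRNA and 19.3, 14.9 and 21.2 FPKM with the Ephexin1 shRNA. The groups overlapped fully, and replicate 2 was the lowest library of both. Its log2 fold change was -0.073 (95% interval -0.60 to 0.46, adjusted p = 0.890 from limma).

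CCND2 was the least abundant D cyclin mRNA in shControl. It made up 1.03%, 1.46% and 1.11% of the summed D cyclin FPKM in the shControl libraries and 0.00754%, 0% and 0.00950% in shEphexin1. CCND1 made up 89.9 ± 1.46% in shControl and 90.3 ± 1.19% in shEphexin1 (SD, 3 libraries a group), a difference within the spread between replicates. The summed D cyclin FPKM was 225, 198 and 235 in shControl and 203, 172 and 193 in shEphexin1. These groups overlapped, since shControl replicate 2 lay below shEphexin1 replicate 1, and the mean was 86.5% of the control. The FPKM summed over all genes was also lower, at 627462, 561335 and 651441 in shControl and 558737, 516079 and 587222 in shEphexin1. Neither this sum nor those of the kinases and INK4 genes below were scaled to that total, and its part in them was not tested.

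CDK4 (12q, chromosome 12 from 58141510 to 58149796) was the more abundant of the kinases that D cyclins activate. It measured 107, 83.7 and 109 FPKM with the control shRNA and 65.5, 53.3 and 65.7 FPKM with the Ephexin1 shRNA. All shEphexin1 libraries were below all shControl libraries, with replicate 2 the lowest of each group, and the mean was 61.7% of the control. Its log2 fold change was -0.69 (SE 0.143, 95% interval -1.03 to -0.36, limma adjusted p = 0.0348). Within the replicate numbers the log2 ratio was -0.70, -0.65 and -0.72, and with replicates 1 and 3 alone the adjusted p was 0.00341. CDK4 no longer passed 0.05 without shControl replicate 1 (adjusted p = 0.159), shControl replicate 3 (0.112), shEphexin1 replicate 1 (0.118) or shEphexin1 replicate 3 (0.0814). The same held with the median of 12q (-0.17, 509 genes) subtracted (log2 fold change -0.52, adjusted p = 0.0954). Among 29 genes with a mean of at least 1 FPKM within 1 Mb of CDK4, the median log2 fold change was -0.28 and 22 were negative, a window chosen after the values had been seen. Of all 16020 genes tested, 8185 were negative. TSPAN31, which overlaps CDK4 on the opposite strand, had a log2 fold change of -0.28 (adjusted p = 0.397).

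The promoters of CDK4 and CDKN1B are shown because both genes fell and both lie on chromosome 12. In RefSeq on GRCh38.p14, 8 of the 10 genes had promoter entries, all but CCND1 and CCND2, with 14 windows between them. The 250 bases upstream of the annotated start are given for CDK4 (chr12:57752311-57752560, minus strand) and CDKN1B (chr12:12717118-12717367, plus strand). They read 5′ to 3′ in the direction of transcription, with each E-box CACGTG (a palindrome, the motif bound by MYC with MAX) in capitals.
CDK4: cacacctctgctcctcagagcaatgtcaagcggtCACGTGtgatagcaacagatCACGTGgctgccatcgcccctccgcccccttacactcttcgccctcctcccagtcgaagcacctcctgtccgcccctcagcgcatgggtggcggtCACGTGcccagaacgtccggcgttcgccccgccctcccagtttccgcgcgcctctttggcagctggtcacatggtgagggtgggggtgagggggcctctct
CDKN1B: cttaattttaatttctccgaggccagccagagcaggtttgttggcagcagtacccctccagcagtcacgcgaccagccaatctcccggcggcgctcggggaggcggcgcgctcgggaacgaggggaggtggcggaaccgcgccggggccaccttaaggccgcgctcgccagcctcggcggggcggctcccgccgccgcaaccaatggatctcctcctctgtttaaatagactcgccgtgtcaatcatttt
The CDK4 window held 3 of these E-boxes and the CDKN1B window 0. Of 35116 windows of the same length, 6.35% held at least 1 E-box and 0.0797% held 3 or more, a number taken from the CDK4 window. Among the 14 windows, E-boxes were otherwise found only at CDKN2C, at most 1 per window. CDKN2C did not fall (log2 fold change 0.082). The GC box GGGCGG, searched on both strands, occurred 3 times in the CDK4 window and 1 time in the CDKN1B window, and at least once in 42.6% of all windows. The motifs CRE (TGACGTCA), AP-1 (TGACTCA) and E2F were also searched and occurred in neither of these windows. These are matches of letters and say nothing about binding in H1299 cells.

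CDK6 (7q, chromosome 7 from 92234235 to 92465887), the other kinase of D cyclins, measured 38.4, 47.2 and 32.9 FPKM with the control shRNA and 39.3, 49.1 and 35.3 FPKM with the Ephexin1 shRNA. The libraries of both groups fell in the same order, with replicate 2 highest. Its log2 fold change was 0.064 (95% interval -0.34 to 0.47, limma adjusted p = 0.874). CDK6 lies on an arm whose genes had a median log2 fold change of 0.30 (407 genes), and with this subtracted its own was -0.23 (adjusted p = 0.518).

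CDK4 and CDK6 together summed to 145, 131 and 141 FPKM in the shControl libraries and to 105, 102 and 101 FPKM in the shEphexin1 libraries, a sum formed after the single values had been seen. The groups did not overlap, and the mean was 73.8% of the control. CDK4 made up 71.4 ± 6.66% of this sum in shControl and 59.9 ± 6.89% in shEphexin1 (SD, 3 libraries a group), with overlapping values. Per FPKM of the kinases there were 1.57 ± 0.0766 FPKM of D cyclins in shControl and 1.84 ± 0.140 in shEphexin1 (SD, 3 libraries a group), without overlap.

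CDKN1B, which encodes p27 (12p, chromosome 12 from 12838432 to 12875303), fell with very little spread between the libraries. It measured 33.1, 32.2 and 34.98 FPKM with the control shRNA and 20.7, 21.3 and 20.8 FPKM with the Ephexin1 shRNA. The groups did not overlap, and replicate 2 did not stand apart for this gene. The mean was 62.7% of the control, with a log2 fold change of -0.67 (SE 0.0963, 95% interval -0.89 to -0.44, adjusted p = 0.0114 from limma). Replicates 1 and 3 by themselves gave -0.71 (adjusted p = 0.00519). It passed an adjusted p of 0.05 without shControl replicate 2, shEphexin1 replicate 2 or shEphexin1 replicate 3, but not without shControl replicate 1 (adjusted p = 0.0851), shControl replicate 3 (0.0594) or shEphexin1 replicate 1 (0.0825).

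Other genes near CDKN1B were lower as well. The median log2 fold change of 12p was -0.43. That of the 17 expressed genes within 1 Mb of CDKN1B was -0.44, with 14 of them negative, beside 8185 of all 16020 genes tested. With the arm median subtracted, the log2 fold change of CDKN1B was -0.24 (limma adjusted p = 0.218). Whether the shift of 12p accounts for the lower CDKN1B mRNA was not tested. GPR19, which overlaps CDKN1B on the opposite strand, was at 3.93 FPKM in the shEphexin1 libraries and 4.76 FPKM in shControl (adjusted p = 0.403).

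**Figure D2:**
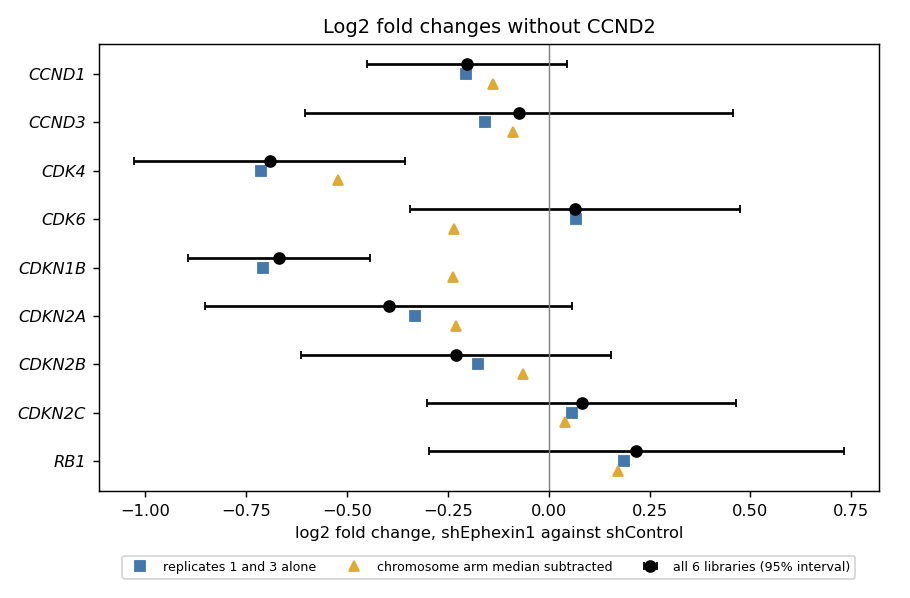
The x axis gives the log2 fold change of shEphexin1 against shControl for 9 genes, CCND2 being left out for its scale. Black points with 95% intervals are from all 6 libraries, squares from replicates 1 and 3 alone, and triangles have the median of the chromosome arm subtracted, which moves CDKN1B from -0.67 to -0.24 and CDK6 from 0.064 to -0.23.

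The INK4 genes were well expressed in H1299 cells, and none of them passed the test over all libraries. CDKN2A (9p, chromosome 9 from 21967751 to 21995300) encodes p16 and, from another first exon, p14ARF, which a value per gene does not separate. It measured 93.3, 75.9 and 105 FPKM with the control shRNA and 78.4, 52.5 and 79.1 FPKM with the Ephexin1 shRNA. Within each replicate number the shEphexin1 library was the lower, but shControl replicate 2 lay among the shEphexin1 values. Its log2 fold change was -0.40 (SE 0.195, 95% interval -0.85 to 0.058, limma adjusted p = 0.275), and with replicates 1 and 3 alone it was -0.33 with an adjusted p of 0.0414. It also passed with the term for replicate 2 (0.00498) and the loess correction (0.00427). The median of 9p was -0.17 (123 genes).

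CDKN2B, which encodes p15 and adjoins CDKN2A (chromosome 9 from 22002902 to 22009304), measured 8.997, 11.4 and 8.07 FPKM with the control shRNA and 7.88, 8.95 and 7.22 FPKM with the Ephexin1 shRNA (log2 fold change -0.23, 95% interval -0.62 to 0.15, limma adjusted p = 0.460). The coding sequences of CDKN2A and CDKN2B are alike, so reads may have been divided between them. CDKN2B-AS1, which runs through the locus on the opposite strand, had values of 3.74 to 4.54 FPKM in the shControl libraries and 4.41 to 4.93 FPKM in the shEphexin1 libraries (adjusted p = 0.427). The library kit keeps strand, but whether the counting used it is not stated. MTAP, the nearest gene tested before the locus at 30101 bp, was at 14.98 ± 1.82 FPKM in the shControl libraries and 11.4 ± 1.305 FPKM in the shEphexin1 libraries (SD, 3 libraries a group, adjusted p = 0.155 from limma), and DMRTA1, the nearest after it at 437519 bp, had an adjusted p of 0.317.

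CDKN2C, which encodes p18 (1p, chromosome 1 from 51426417 to 51440306), measured 48.7, 37.1 and 51.5 FPKM with the control shRNA and 53.0, 40.6 and 51.3 FPKM with the Ephexin1 shRNA. The ranges of the groups were nearly the same, and the log2 fold change was 0.082 (95% interval -0.30 to 0.47, limma adjusted p = 0.820). In shares computed after the single values had been seen, CDKN2A made up 62.2 ± 1.47% of the summed INK4 FPKM in the shControl libraries and 55.1 ± 3.21% in shEphexin1 (SD, 3 libraries a group), without overlap. The INK4 sum itself was 151, 124 and 165 FPKM in the shControl libraries and 139, 102 and 138 FPKM in the shEphexin1 libraries, which overlapped.

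RB1, the substrate of these kinases (13q, chromosome 13 from 48877880 to 49173572), measured 21.4, 27.8 and 18.1 FPKM with the control shRNA and 24.0, 33.7 and 21.0 FPKM with the Ephexin1 shRNA. Replicate 2 was the highest library of both groups, and the ranges overlapped. Within the replicate numbers the log2 ratio was 0.16, 0.28 and 0.21, always higher in shEphexin1. The log2 fold change over all libraries was 0.22 (SE 0.220, 95% interval -0.30 to 0.73, adjusted p = 0.614 from limma), and with replicates 1 and 3 alone it was 0.19 (adjusted p = 0.316). It passed with the loess correction (0.0264) but not with the term for replicate 2 (0.101).

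In order of shControl level, CCND1 at 197 FPKM stood above CDK4 at 99.7 and CDKN2A at 91.4 FPKM. The ranges of CDK4 and CDKN2A overlapped, but within each shControl library CDK4 was the higher. CDKN2C at 45.8, CDK6 at 39.5 and CDKN1B at 33.4 FPKM followed. The CDK6 libraries overlapped those of CDKN2C and CDKN1B, but every CDKN2C library lay above every CDKN1B library. RB1 at 22.5 and CCND3 at 19.7 FPKM came next and overlapped. CDKN2B at 9.48 FPKM and CCND2 at 2.60 FPKM were the lowest. In shEphexin1, CDKN2A at 70.0 FPKM had the higher mean and CDK4 was at 61.5 FPKM, again with overlapping ranges. Here CDKN2A was above CDK4 in replicates 1 and 3 (78.4 and 79.1 against 65.5 and 65.7 FPKM). In replicate 2 it was slightly below (52.5 against 53.3 FPKM).

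The partner genes of this machinery were read from 6 lists by role, 63 genes of which 62 were tested. At an adjusted p of at most 0.05, 2 rose and 2 fell, beside the shares of 2.69% and 4.32% over all genes. The groups did not overlap for 16 genes that were lower in shEphexin1 and for 4 that were higher, beside 15.4% and 12.8% of all genes. With replicates 1 and 3 alone, 3 rose and 12 fell, where 6.89% of all genes rose and 10.4% fell.

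CCNE1, which encodes cyclin E1 and is itself a target of E2F, rose. It measured 6.39, 7.15 and 7.20 FPKM with the control shRNA and 12.2, 11.4 and 10.8 FPKM with the Ephexin1 shRNA. All shEphexin1 libraries lay above all shControl libraries, and the increase was 0.72 on the log2 scale (SE 0.119, limma adjusted p = 0.0181). It passed 0.05 without replicate 2 of either group and had an adjusted p of 0.114, 0.0639, 0.110 and 0.0570 without shControl replicate 1, shControl replicate 3, shEphexin1 replicate 1 and shEphexin1 replicate 3. The other 5 genes of its list (CCNE2, CCNA1, CCNA2, CDK2 and CDC25A) did not pass, with negative log2 fold changes. CDK2, the partner of cyclin E, named here for its value, went from 56.7 ± 4.39 to 41.7 ± 2.39 FPKM (SD, 3 libraries a group, limma adjusted p = 0.0521), without overlap of the groups.

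Of 16 tested genes for the degradation of D cyclins and p27, 2 fell and 1 rose at an adjusted p of at most 0.05 (limma). Over all genes, 4.32% fell and 2.69% rose. SKP2, the F-box protein that marks p27 for destruction, measured 18.2, 22.5 and 21.2 FPKM with the control shRNA and 14.6, 12.4 and 10.8 FPKM with the Ephexin1 shRNA (log2 fold change -0.71, SE 0.150, adjusted p = 0.0356 from limma). CKS1B, the cofactor SKP2 needs for p27, measured 139, 132 and 135 FPKM with the control shRNA and 105, 86.7 and 95.7 FPKM with the Ephexin1 shRNA (log2 fold change -0.50, limma adjusted p = 0.0348). CUL1, the scaffold of the same ubiquitin ligase, rose from 22.5 ± 1.56 to 31.3 ± 2.21 FPKM (SD, 3 libraries a group, limma adjusted p = 0.0460). None of these groups overlapped. The mRNAs of p27 and of the SKP2 and CKS1B pair that targets it were thus all lower in shEphexin1. SKP2 and CUL1 lie on arms that shifted, 5p (median -0.26) and 7q (0.30), and with the arm median subtracted their adjusted p values were 0.142 and 0.436, whereas that of CKS1B was 0.0478. Leaving out any of the 6 libraries took SKP2 (adjusted p from 0.0517 to 0.112) and CUL1 (0.0648 to 0.199) over 0.05, and CKS1B stayed under it only without shEphexin1 replicate 2 (0.0445) and reached 0.170 without shControl replicate 1.

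Of the 22 E2F target genes of S phase entry, 0 passed an adjusted p of 0.05 with limma, and 6 were lower at an unadjusted p under 0.05, as were 12.8% of all genes. Their median log2 fold change was -0.19 (range -0.48 to 0.17), and 16 were negative, as were 8185 of the 16020 genes tested. The groups did not overlap for 8 (MCM4, MCM10, ORC1, GINS1, GINS2, PCNA, TYMS and POLA1), all lower in shEphexin1, against 15.4% of all genes. With arm medians subtracted, the log2 fold changes of 4 of them moved close to or past 0, MCM4 from -0.29 to -0.049, GINS1 from -0.29 to -0.0017, PCNA from -0.30 to -0.013 and TYMS from -0.35 to 0.11. Those of GINS2 (-0.46 to -0.47), ORC1 (-0.11 to -0.15), MCM10 (-0.26 to -0.25) and POLA1 (-0.31 to -0.23) moved less and stayed negative. GINS2, a subunit of the replicative helicase, had the smallest adjusted p of the list at 0.0582 (41.0 ± 3.02 FPKM in the shControl libraries and 29.9 ± 2.64 FPKM in the shEphexin1 libraries, SD, n = 3 in each group, limma). Of the 12 pocket proteins, E2F and DP factors, 0 passed (2 at an unadjusted p under 0.05, both lower, against 12.8% of all genes), and E2F7, a repressor of the family, had the smallest adjusted p (0.146, limma).

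CDKN1A, which encodes p21, measured 43.7, 30.4 and 45.2 FPKM with the control shRNA and 62.9, 47.1 and 68.0 FPKM with the Ephexin1 shRNA. The groups did not overlap, but the log2 fold change of 0.58 (SE 0.199) had a limma adjusted p of 0.133 over all libraries and of 0.00821 with replicates 1 and 3 alone. CDKN1C and CDKN2D did not pass, and of the CDK-activating kinase (CDK7, CCNH and MNAT1) 0 of 3 passed with limma (0 also at an unadjusted p under 0.05), with MNAT1 at the smallest adjusted p of 0.508.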

How the data were processed

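Total RNA of 3 shControl and 3 shEphexin1 libraries was extracted with TRIzol, made into stranded libraries and sequenced. According to the methods and the submitters' processing notes, the authors mapped reads to GRCh37/hg19 with TopHat2 2.0.13 and deposited FPKM per gene and library from Cuffdiff (Cufflinks 2.2.1, geometric normalization, pooled dispersion). The annotation and filters are not given in the sources used here. All 6 value columns were assigned by library name. FPKM carry no read counts, so no counting interval is given.

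A gene was tested if 3 or more libraries reached 0.1 FPKM, as log2(FPKM + 0.1) with limma 3.58.1 (eBayes with trend, R 4.3.3). A simulated data set was used to test the script. Tables and plots were made with Python 3.11.15. Positions are from GENCODE 44 on GRCh37 (23759 of 26253 names matched, 22422 directly and 1337 through older symbols). Chromosome arms were divided at the longest run of unknown bases.

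The genes, lists and alternatives were chosen with earlier results of these data known. Named partner genes are those at an adjusted p of at most 0.05 or, where a list had none, the one with the smallest; around CCND2 and CDKN2A, the nearest gene tested on each side. Exact permutation tests were set for the D cyclin sum and the CCND2 share, but with 3 libraries against 3 they cannot go below 0.1, and no p is given for sums. The alternatives were other pseudocounts, filters, normalizations and eBayes settings, a replicate block, a term for replicate 2, replicates 1 and 3 alone, each library left out, a loess correction for GC content and transcript length, and subtraction of chromosome arm medians.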

Additional observations from a re-analysis of the deposited data

How the results depend on the processing

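CCND2 stayed called under all 20 alternatives, and the D cyclin sum (-29.7 FPKM, shEphexin1 minus shControl) and the CCND2 share (-1.19 percentage points) moved by less than the spread between replicates under the 8 tried for them. The 3 genes of the 10 at an adjusted p of at most 0.05 became 6 with the replicate block and with both loess corrections, 5 with the term for replicate 2 and 1 with arm medians subtracted. The share of all genes that passed rose from 7.01% to 33.5% with the block, 29.1% with the loess correction, 29.2% with the term for replicate 2 and 17.3% with replicates 1 and 3 alone, and it was 4.06% with arm medians subtracted and 5.69% without the eBayes trend. With the loess correction and block, 5611 of 16020 genes passed. With single libraries left out the 3 genes were between 1 and 3, namely 1 when replicate 1 of either group or replicate 3 of shControl was missing. With the block, 5 fell and 1 rose (RB1, adjusted p = 0.0204), with CCND1 (0.0145) and CDKN2A (0.00431) added to the decreases. The 4 partner genes of 62 became 28 with the block, alone or with the loess correction, 21 with the loess correction, 20 with the term for replicate 2, 15 with replicates 1 and 3 alone, 2 with arm medians subtracted and 1 without the eBayes trend. They were between 0 and 4 with a library left out, and 0 with limma when replicate 1 or 3 of either group was missing (9 to 14 at an unadjusted p under 0.05, beside 16.1% to 19.2% of all genes). Whether the replicate numbers pair the libraries is not stated in the sources used here, and the main fit had no term for them. Deviations of same-numbered libraries correlated at 0.0914, 0.430 and 0.328, and each library correlated best with its own number. For shEphexin1 replicate 1 the margin was small, with 0.0887 against shControl replicate 3. CDK4 also lost an adjusted p of 0.05 without the filter (0.105) or the eBayes trend (0.0648). Among the 10 genes, signs turned for 3: CDKN2C to -0.0077 with both loess corrections, CDK6 to -0.23 with arm medians subtracted, and, with a library left out, CCND3 (-0.30 to 0.087), CDK6 (-0.068 to 0.20) and CDKN2C (-0.061 to 0.20). With arm medians subtracted, 6 partner genes turned sign, among them TYMS (-0.35 to 0.11) and CCNE2 (-0.19 to 0.056). With quantile normalization CCND1 was at -0.022. The cause of these changes was not tested. Without read counts, the values of CCND2 in shEphexin1 cannot be told from 0.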
